A study of Gallus gallus with 8 samples.

Results

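RASD2, ADCY8, NMB, ST8SIA6, AMIGO2 and ADH6 are 6 genes of signalling, of the cell surface and of metabolism whose signal was bright in the utricle of the chick inner ear and far lower in the cochlea, where it lay at background except on 1 array each for NMB and AMIGO2. They were chosen for that difference, so their tissue levels are given below as a description and without a test. Gene names picked out 10 of the 38535 probe sets on the array, with 1 probe set each for RASD2 and NMB and 2 each for the other 4 genes. The ADH6 name rests on a protein accession in the deposited description, because the deposited sheet itself calls the gene alcohol dehydrogenase 1B and abbreviates it ADH7.

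The utricle is a balance organ that senses gravity and linear acceleration, and the avian cochlea, or basilar papilla, is the hearing organ. Both sensory epithelia are mosaics of mechanosensory hair cells and the supporting cells around them. The 6 genes act at different levels of a cell's exchange with its surroundings: a neuropeptide that leaves the cell, an adhesion protein and a glycan-building enzyme that shape its surface, an enzyme and a GTPase that pass signals on inside it, and an alcohol dehydrogenase, a family whose substrates include retinol.

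The samples were 4 preparations of utricle and 4 of cochlea epithelium from chick embryos, with 1 Affymetrix array each. Embryos were at embryonic day 20 to 21 after incubation at 38 °C, and the labels name no genotype, strain or agent for either tissue. Each sample pooled 10 to 20 epithelia, and 0.08 µg of RNA was labelled, which the labels call a nonstandard amount. Samples of 1 tissue are labelled as biological replicates, without saying which animals each pool held.

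Values are log2 signals after the authors' GCRMA normalization, and the lowest in the table was 2.22. Signals under 4 are treated here as background. On each array 40.97% to 41.76% of probe sets lay above 4, and the number of arrays limits the precision. Of 16223 probe sets tested across the tissues with limma, 26.4% were called toward the utricle and 25.1% toward the cochlea at a Benjamini-Hochberg adjusted p under 0.05. The dissection is labelled as leaving hair cells and supporting cells. The hair cell marker MYO7A averaged 8.60 ± 0.36 in utricle samples against 7.81 ± 0.21 in cochlea samples, and the supporting cell marker SOX2 averaged 8.90 ± 0.24 against 7.60 ± 0.39 (SD, n = 4). Other markers differed more, utricle minus cochlea: CALB2 of the hair cell list by 5.93 log2 units and TIMP3 of the supporting cell list by -5.82. The log2 of the summed signals of tested hair cell markers was 15.04 to 15.23 in the utricle and 12.41 to 12.89 in the cochlea. Signals were taken off the log2 scale before summing. CALB2 averaged 14.70 in the utricle against 8.77 in the cochlea and made up most of the utricle sum. For supporting cell markers the sums were 16.81 to 16.84 and 16.85 to 17.04. Of 9 tested hair cell markers, 4 were called toward the utricle and 3 toward the cochlea, and of 10 supporting cell markers 5 and 4. JAG1, among those 5, had every cochlea array under 4 (2.22 to 2.87). It was tested only because of its utricle signal, so its direction was fixed. In bulk samples, fewer cells of a type and less RNA per cell cannot be told apart.

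All 10 probe sets were higher on every utricle array than on any cochlea array. Among all 38439 probe sets that are not controls, 11.8% separated the tissues in this way, and nothing is read from the comparison, since the genes were chosen on it. Of the 10, 9 passed the filter for testing, for which 4 or more of the 8 arrays had to exceed log2 4, and a second AMIGO2 probe set did not. In 8 of the 10, of which 7 were tested, every cochlea array was under 4. The share was 1.94% of all tested probe sets, and again nothing is read from it, since low cochlea signal chose the genes. Where a cochlea array lay under 4, it was raised to 4 for the fold, so each fold is a lower bound. For the brightest probe set of each gene these bounds ran from at least 42.9-fold for ADH6 to at least 96.7-fold for AMIGO2.

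**Figure D1:**
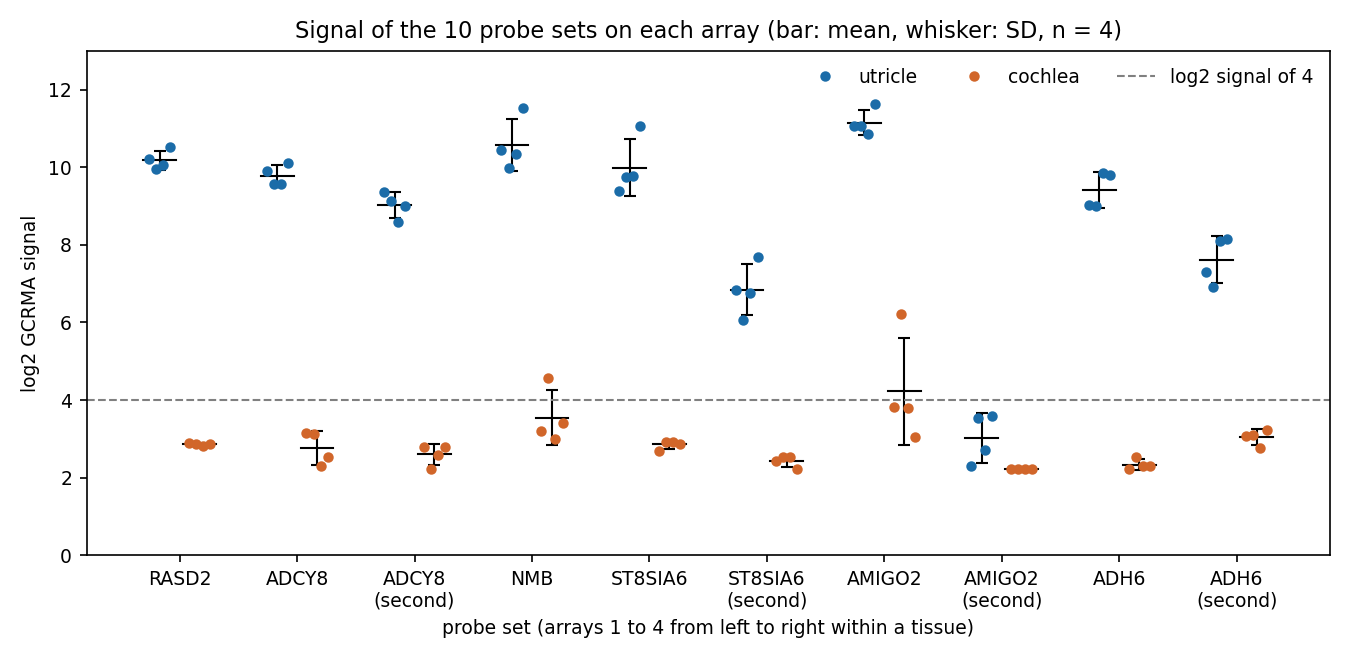
Log2 GCRMA signal (vertical axis) of the 10 probe sets on the 4 utricle arrays (blue) and the 4 cochlea arrays (orange), with the mean as a bar and the SD as a whisker. The brightest probe set of each gene averaged 9.42 to 11.15 in the utricle, and single cochlea arrays rose above the dashed line at 4 for NMB (4.56) and AMIGO2 (6.23).

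NMB encodes neuromedin B, a secreted peptide of the bombesin family that acts in mammals through a receptor coupled to Gq. Its signal was 10.44, 9.98, 10.34 and 11.52 on utricle arrays 1 to 4. In the cochlea it was 3.20, 4.56, 3.00 and 3.41. Utricle array 4 stood highest, cochlea array 2 was the only cochlea array above 4, and the tissues did not overlap. The means were 10.57 ± 0.67 and 3.55 ± 0.70 (mean ± SD over the 4 arrays of a tissue, as in the values that follow), at least an 86.1-fold difference. Without utricle array 4 the bound was at least 69.1-fold, and without utricle array 2 at least 98.7-fold.

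AMIGO2 encodes a transmembrane adhesion protein with leucine-rich repeats and an immunoglobulin domain. Its brighter probe set gave 11.06, 11.07, 10.85 and 11.63 in the utricle. The cochlea arrays gave 3.82, 6.23, 3.79 and 3.06. The utricle arrays lay close together, whereas cochlea array 2 stood well above the other cochlea arrays, which were all under 4. The means were 11.15 ± 0.33 and 4.23 ± 1.38, at least a 96.7-fold difference, or at least 142-fold without cochlea array 2. The other AMIGO2 probe set was under 4 on all arrays, at 2.29, 3.54, 2.71 and 3.58 in the utricle and 2.22 on each cochlea array. Averaged over both probe sets, the AMIGO2 bound fell to at least 9.83-fold. This fall was fixed in advance, because the dim probe set was raised to 4 on every array and could add no difference.

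ST8SIA6 encodes an alpha-2,8-sialyltransferase, which adds sialic acid to sialic acid already on a glycan. Its brighter probe set gave 9.39, 9.75, 9.77 and 11.07 in the utricle. The cochlea arrays gave 2.70, 2.91, 2.93 and 2.88. Utricle array 4 was above the other utricle arrays, and all cochlea arrays were at background. The means were 9.99 ± 0.74 and 2.86 ± 0.11, at least a 63.7-fold difference. The second probe set, named by its description, was dimmer in the utricle, at 6.84, 6.07, 6.77 and 7.69, and lay between 2.23 and 2.54 in the cochlea, at least a 7.18-fold difference. Averaged over both probe sets, the bound was at least 21.4-fold.

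ADCY8 encodes a membrane adenylyl cyclase that calcium and calmodulin stimulate to make cyclic AMP. Its brighter probe set gave 9.89, 9.56, 9.56 and 10.12 in the utricle. The cochlea arrays gave 3.15, 3.12, 2.30 and 2.54. All utricle arrays were bright and all cochlea arrays under 4. The means were 9.78 ± 0.28 and 2.77 ± 0.43, at least a 55.1-fold difference. The second ADCY8 probe set gave 9.36, 9.12, 8.58 and 9.0 in the utricle and 2.22 to 2.80 in the cochlea, at least a 32.4-fold difference. Unlike the brighter one, it was highest on utricle array 1.

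RASD2 encodes a small GTPase of the Ras superfamily, also called Rhes and best known from the mammalian striatum. Its single probe set gave 10.21, 9.96, 10.05 and 10.52 in the utricle. The cochlea arrays gave 2.90, 2.88, 2.82 and 2.88. The means were 10.18 ± 0.25 and 2.87 ± 0.03, and the utricle arrays lay close together. The difference was at least 72.7-fold.

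ADH6 belongs to the alcohol dehydrogenases, which oxidise alcohols, including retinol in mammals. Its brighter probe set gave 9.03, 9.01, 9.84 and 9.81 in the utricle. The cochlea arrays gave 2.23, 2.53, 2.31 and 2.31. Utricle arrays 3 and 4 lay above arrays 1 and 2, and the same held for the second probe set, at 7.31, 6.92, 8.10 and 8.16. The brighter probe set averaged 9.42 ± 0.46 and 2.34 ± 0.13, at least a 42.9-fold difference. The second averaged 7.62 ± 0.61 and 3.05 ± 0.20, at least a 12.3-fold difference.

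The authors' detection calls add a second readout from the same arrays. All 10 probe sets were called present on the 4 utricle arrays. Of the 10, 6 were called present on 0 cochlea arrays: those of RASD2, ADCY8 and ADH6 and the dim AMIGO2 probe set. Over all probe sets, 0.877% had the pattern of 4 utricle and 0 cochlea calls. Nothing is read from this share, since the genes were chosen for bright utricle and low cochlea signal. The brighter ST8SIA6 and AMIGO2 probe sets were called present on all 4 cochlea arrays, and NMB and the second ST8SIA6 probe set on 2. The word restricted thus goes beyond the data for AMIGO2 and NMB, each with 1 cochlea array above 4 and with present calls in the cochlea, and for ST8SIA6, with present calls alone. Of 19931 probe sets with every cochlea array under 3, 4.04% were, like ST8SIA6, called present on all 4 cochlea arrays.

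**Figure D2:**
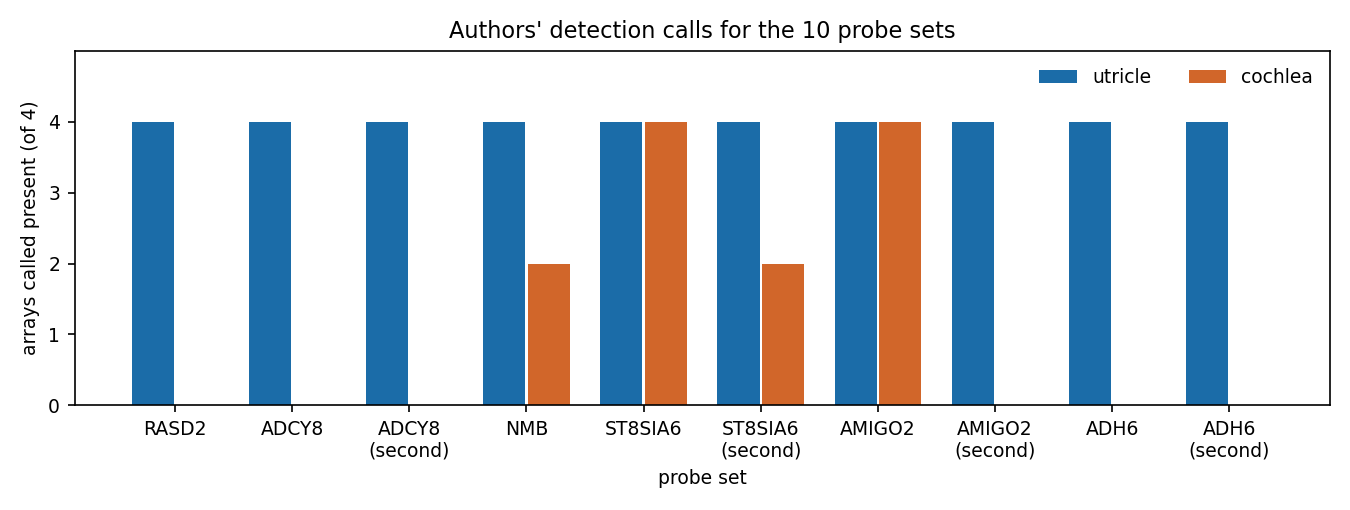
Number of arrays, of 4 per tissue, on which the authors called each of the 10 probe sets present (blue utricle, orange cochlea). Utricle bars all reach 4, and cochlea bars are absent for 6 probe sets, at 2 for NMB and the second ST8SIA6 probe set and at 4 for the brighter ST8SIA6 and AMIGO2 probe sets.

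The authors' deposited table of probe sets higher in the utricle by SAM, a permutation-based test, held 2342 probe sets. In the authors' deposited table the brightest probe sets of the 6 genes stood next to each other, from rank 7 to rank 12 by fold. The authors' deposited table gave 185.46-fold for AMIGO2, 170.45 for NMB, 160.54 for RASD2, 148.54 for ADCY8, 140.47 for ADH6 and 140.2 for ST8SIA6, each with a q-value of 0%. These folds are the authors' own ratios from SAM and are larger than the bounds above. The bounds come from mean log2 signals, with those under 4 raised to 4, so the measures differ. The 6 genes were chosen for this contrast, so nothing is read from their ranks or q-values. In the authors' deposited table the dim AMIGO2 probe set ranked 1729, at 1.75-fold with a q-value of 2.93%.

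Utricle array 4 was the highest utricle array for 8 of the 10 probe sets and for the brightest probe set of 5 of the 6 genes, ADH6 being the exception. Among 130 other probe sets with a utricle mean of at least 8 and a cochlea mean under 6, array 4 was highest in 43.8%, and among all tested probe sets in 26.6%. In the cochlea, where most values lay under 4 and have no order, array 2 was the array above 4 for both NMB and AMIGO2. Red blood cell markers moved between arrays too. The log2 of their summed signals was 9.28, 12.12, 13.60 and 13.82 on utricle arrays 1 to 4, and 9.18, 12.54, 12.20 and 14.45 on the cochlea arrays. Their part in the array differences was not tested. None of the 3 tested red blood cell markers passed the threshold between the tissues.

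**Figure D3:**
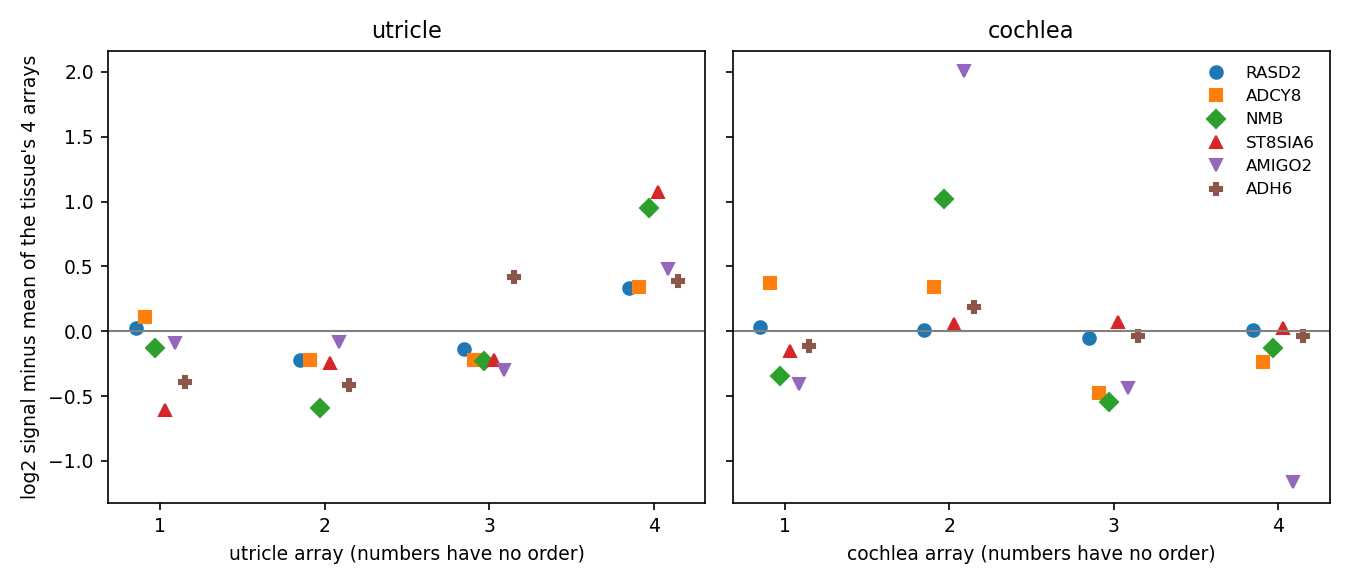
Log2 signal of the brightest probe set of each gene minus the mean of the tissue's 4 arrays (vertical axis), by array, for the utricle (left) and the cochlea (right). In the utricle all 6 genes lie above 0 on array 4, and in the cochlea AMIGO2 and NMB stand out on array 2.

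The genes with the most similar profiles were sought among 8245 other genes, less those whose names start with LOC, which were left out. The measure was the mean absolute difference over the 8 arrays after each profile's own mean was taken off. The members were mostly each other's closest matches. The closest to RASD2 were ADH6 (0.232 log2 units), ADCY8 (0.245) and ST8SIA6 (0.276). NMB lay nearest to ADCY8 (0.346), ST8SIA6 (0.360) and RASD2 (0.407). Genes outside the set that entered were VCAN, the matrix proteoglycan versican, which was the closest to ADH6 (0.212) and was also among the closest to ST8SIA6 (0.329). CIB3, a calcium- and integrin-binding family protein, was second for ADCY8 (0.286). CYP27C1, a cytochrome P450, was second for AMIGO2 (0.492), after NMB (0.412). VCAN averaged 9.07 ± 0.20 and 2.27 ± 0.07, CIB3 8.92 ± 0.22 and 2.25 ± 0.03, and CYP27C1 10.50 ± 0.27 and 4.30 ± 1.08. The measure is dominated by the tissue difference on which the 6 were chosen, so it is a description.

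Relatives and pathway partners of the 6 genes were gathered in 6 lists, of which 91 genes were tested. Of the 91, 31 (34.1%) were called toward the utricle, 25 toward the cochlea and 35 in neither direction. Over all 8246 tested genes, 26.6% were called toward the utricle and 26.8% toward the cochlea, and 53.4% were called in either direction. The median difference was 0.07 log2 units over the 91 genes and 0.0 over all genes. Each list held genes called in both directions. Of the 31, 4 (CRABP1, LRRN3, NPL and RIT2) had every cochlea array under 4 and so passed the filter only through the utricle, where they had to be higher. They are given below without a p-value, and without them 27 of 87 genes were called toward the utricle. The share over all tested genes was not recounted without such genes, so nothing is read from 27 of 87 beside it. The counts by list below include the 4 genes. Without them the calls toward the utricle were 1 of 16 Ras-type GTPases and 2 of 7 sialic acid genes. They were 5 of 13 for the leucine-rich repeat adhesion genes and 5 of 13 for the alcohol dehydrogenase and retinoid genes. In what follows, adjusted p-values are from limma with Benjamini-Hochberg adjustment over all tested probe sets, and differences are utricle minus cochlea.

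**Figure D4:**
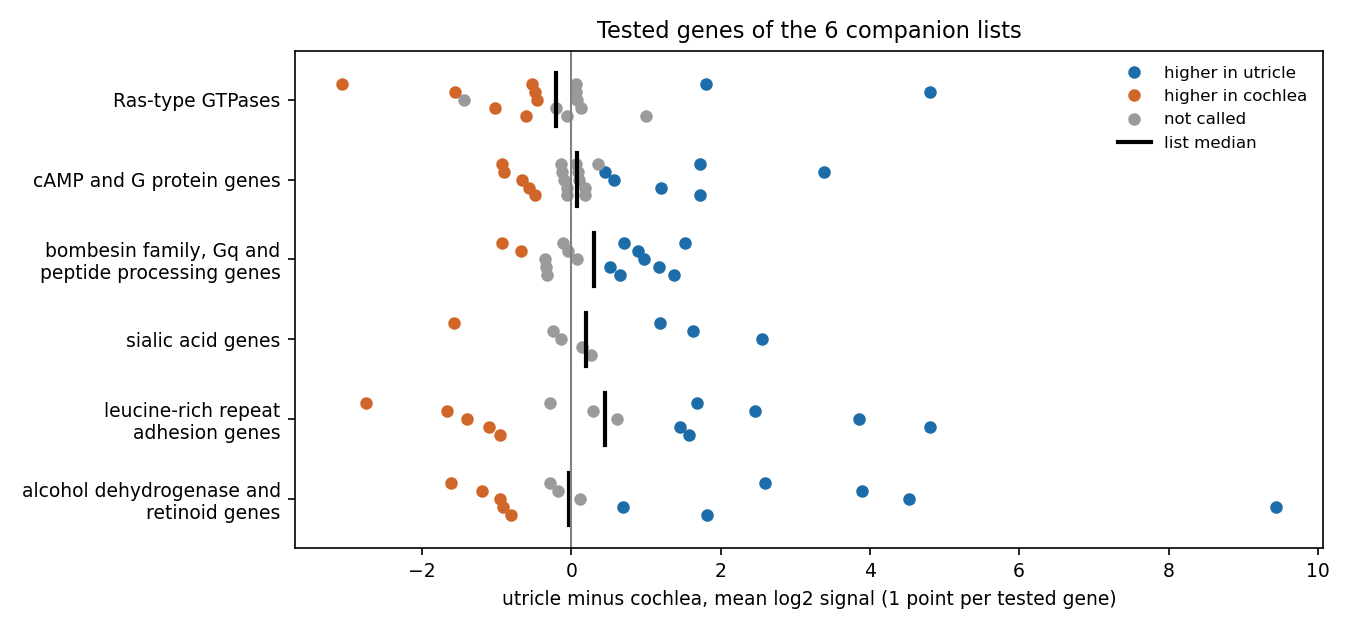
Difference in mean log2 signal, utricle minus cochlea (horizontal axis), for each tested gene of the 6 lists, coloured by the limma call, with the list median as a black bar. Medians lie between -0.21 and 0.45, and the point farthest to the right is CRABP1 at 9.44. Its difference was taken against cochlea signals at background, as were those of LRRN3 (4.81), NPL (2.55) and RIT2 (1.81). For each of them the text gives a bound.

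Among the peptide's partners, the named genes of the bombesin family and its receptors had signals at background in both tissues. The probe sets of the neuromedin B receptor NMBR, of GRP, the related gastrin-releasing peptide, and of the receptor BRS3 were at 2.22 on every array. The probe set of GRPR, the gastrin-releasing peptide receptor, lay between 2.23 and 2.29, although the authors called it present on 2 utricle and 4 cochlea arrays. Of 16 tested genes of the Gq pathway and of peptide processing, 8 were called toward the utricle and 2 toward the cochlea, with a median of 0.30. SCG2, the granule protein secretogranin II, was at 12.20, 12.37, 11.99 and 12.10 in the utricle and 10.62, 10.93, 10.36 and 10.63 in the cochlea, 2.89-fold above its cochlear level (adjusted p = 2.65e-05). PRKCD, a protein kinase C, was 2.61-fold above its cochlear level (adjusted p = 5.71e-05), and GNAQ, the Gq alpha subunit, 1.85-fold (adjusted p = 0.000185). ITPR2, a calcium release channel, was 1.91-fold above its utricular level (adjusted p = 0.00582). PRKCA was 1.60-fold above its utricular level (adjusted p = 0.0174), a call that was lost without cochlea array 3 (adjusted p = 0.0512).

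Of 14 tested leucine-rich repeat adhesion genes, 6 were called toward the utricle and 5 toward the cochlea, with a median of 0.45. LRRN3 gave 8.29, 7.80, 8.37 and 8.05 in the utricle and 3.01, 3.42, 3.42 and 3.43 in the cochlea, at least a 17.5-fold difference. LINGO3 was 14.5-fold above its cochlear level (adjusted p = 4.94e-08), and TPBG, the trophoblast glycoprotein, 3.00-fold (adjusted p = 4.68e-06). In the cochlea TPBG lay just above 4, at 4.53 to 4.66, and the authors called it present on 1 array there. In the other direction, SLITRK6, a neurite-regulating membrane protein needed for normal inner ear innervation in mice, was 6.73-fold above its utricular level (adjusted p = 8.69e-06). LRRC4C, a netrin-G ligand, was 3.19-fold above its utricular level (adjusted p = 8.91e-05) and LRRC3B 2.15-fold (adjusted p = 4.19e-05). AMIGO1 and AMIGO3 were not named on the array.

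Of 8 tested genes of sialic acid metabolism and transfer, 3 were called toward the utricle and 1 toward the cochlea. Of the other named members of the ST8SIA family, ST8SIA2 to ST8SIA5 stayed under 4 on all arrays. The authors called ST8SIA2 present on 3 utricle arrays and ST8SIA3 and ST8SIA4 on 2 each, and all of these on 0 cochlea arrays. ST8SIA1, which makes the ganglioside GD3, gave 5.26, 3.09, 4.91 and 4.21 in the utricle and 2.47 to 2.48 in the cochlea and was above 4 on too few arrays to be tested. The authors called ST8SIA1 present on 4 utricle and 0 cochlea arrays, as they did for some probe sets of the 6 genes. NPL, which breaks down sialic acid, was at 5.40 to 6.03 in the utricle and 2.43 to 3.57 in the cochlea, at least a 3.08-fold difference. NCAM1, an adhesion molecule that carries polysialic acid in vertebrates, was 3.09-fold higher (adjusted p = 0.000139). The sialyltransferases split, with ST3GAL6 2.28-fold above its cochlear level (adjusted p = 0.000101) and ST3GAL2 2.97-fold above its utricular level (adjusted p = 0.000206).

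Of 22 tested cyclic AMP and G protein genes, 6 were called toward the utricle and 5 toward the cochlea, with a median of 0.08. ADCY9, a cyclase that calmodulin does not stimulate, went the other way: it was at 6.67, 6.91, 6.99 and 7.06 in the utricle and 7.22, 7.54, 7.64 and 7.85 in the cochlea, 1.58-fold above its utricular level (adjusted p = 0.00572). The probe sets of ADCY1, ADCY2, ADCY3, ADCY6, ADCY7 and ADCY10 stayed under 4 on all arrays. Even so, the authors called ADCY3 present on 4 utricle and 4 cochlea arrays, ADCY6 on 2 utricle arrays, and ADCY7 and ADCY10 on 1 utricle array each. The 3 phosphodiesterases with the smallest adjusted p, enzymes that break cyclic nucleotides down, were higher in the utricle. PDE1C, which calmodulin activates, was at least 9.46-fold higher (adjusted p = 5.39e-06), PDE4B 3.31-fold (adjusted p = 5.3e-06) and PDE3B 3.29-fold (adjusted p = 1.75e-05). PRKAR1A, a regulatory subunit of protein kinase A, was 1.90-fold above its utricular level (adjusted p = 1.84e-05), GNAI3, an inhibitory G protein subunit, 1.87-fold (adjusted p = 4.38e-05) and GNB4 1.40-fold (adjusted p = 0.00561).

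Of 17 tested Ras-type GTPases, 2 were called toward the utricle and 7 toward the cochlea, with a median of -0.21. RASL11B was at 10.54, 10.44, 10.26 and 10.42 in the utricle and 5.47, 5.69, 5.59 and 5.69 in the cochlea, 28.0-fold above its cochlear level (adjusted p = 6.43e-09). RIT2, the other one, was just above background in the utricle, at 4.07 to 4.31 against 2.39 in the cochlea, at least 1.14-fold. RRAS was 8.38-fold above its utricular level (adjusted p = 1.77e-07), HRAS 2.94-fold (adjusted p = 3.15e-06) and NKIRAS1 1.44-fold (adjusted p = 0.00186). RASD1, the closest relative of RASD2 and known in mammals as a dexamethasone-induced gene, varied widely: it gave 4.31, 8.41, 5.08 and 4.53 in the utricle and 5.82, 9.05, 7.17 and 6.0 in the cochlea. The tissues overlapped and the difference of -1.43 did not pass the threshold (adjusted p = 0.274). Array 2 was the highest in both tissues, and with the replicate number as a block the same difference passed (adjusted p = 0.00324).

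Of 14 tested alcohol dehydrogenase and retinoid genes, 6 were called toward the utricle and 5 toward the cochlea, with a median of -0.03. CRABP1, a cytosolic carrier of retinoic acid, gave 11.83, 11.45, 11.93 and 11.88 in the utricle and 2.32, 2.56, 2.23 and 2.23 in the cochlea, a difference of at least 219-fold. ALDH1A3, which makes retinoic acid from retinal, was 14.8-fold above its cochlear level (adjusted p = 1.22e-07), and DHRS3, which reduces retinal to retinol, 6.04-fold (adjusted p = 2.37e-07). RXRA, a nuclear receptor partner of the retinoic acid receptors, was 3.04-fold above its utricular level (adjusted p = 0.000133), RDH5, a retinol dehydrogenase, 2.29-fold (adjusted p = 0.00096) and the retinol carrier RBP5 1.94-fold (adjusted p = 0.000428). The authors called RXRA present on 1 utricle array and RDH5 on 2, and both on 4 cochlea arrays. Of the other alcohol dehydrogenases, ADH1C lay between 2.38 and 2.43 on all arrays, although the authors called it present on 4 utricle and 4 cochlea arrays. ADH4, which the deposited sheet describes as a class III enzyme, was at 10.14, 10.00, 10.41 and 10.06 in the utricle and 10.58, 10.46, 10.43 and 10.26 in the cochlea, a difference of -0.28 that did not pass the threshold (adjusted p = 0.071, 95% interval -0.54 to -0.02).

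The protein-coding genes next to the 6 on the chicken assembly GRCg7b, 2 on each side, were looked up after the values of the 6 had been seen. Of 24 neighbours, 12 were tested, of which 4 were called toward the utricle, 3 toward the cochlea and 5 in neither direction. Over all tested genes, 26.6% were called toward the utricle and 26.8% toward the cochlea, and nothing is read from the counts of so few neighbours. VIM, which encodes the intermediate filament protein vimentin and lies next to ST8SIA6, was 8.10-fold above its cochlear level (adjusted p = 2.12e-05). The other neighbours higher in the utricle were ASAP1 (2.27-fold), TRDMT1 (1.85-fold) and RPAP3 (1.47-fold). The neighbours called toward the cochlea were EFR3A (3.19-fold) and FAM49B (2.70-fold), both near ADCY8, and STAM (1.47-fold), near ST8SIA6. ADH4 adjoins ADH6, and its difference is given above. HMOX1, near RASD2, did not pass the threshold (adjusted p = 0.333) but did with the replicate number as a block (adjusted p = 0.0439).

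Markers of other cell types were measured beside these results. Of the melanocyte list, 5 of 8 genes were named on the array. All 3 tested (KIT, MITF and DCT) were higher in the utricle, DCT with every cochlea array under 4. The log2 of their summed signals was 12.16 to 12.49 against 10.21 to 10.70, while MLANA was at 2.22 in both tissues. KIT made up most of that sum, averaging 12.06 and 10.12, against 9.70 and 8.05 for MITF and 4.59 and 2.79 for DCT. Of the leukocyte list, 8 of 10 were named and all 3 tested (CD74, CSF1R and CD3E) were higher in the utricle. Summed in the same way, they gave 11.96 to 12.26 against 10.68 to 11.10, while PTPRC averaged 2.32 and 2.51 and SPI1 2.31 and 2.22. Of 5 tested neuronal markers, 1 was called toward the utricle and 3 toward the cochlea, with sums of 11.92 to 12.48 against 14.42 to 14.70. ISL1 was the brightest of these 5 in both tissues, at 11.90 and 13.86. For comparison, 26.6% of all tested genes were called toward the utricle and 26.8% toward the cochlea. Cartilage and endothelial markers had 1 gene higher in each tissue (of 3 and of 2 tested), muscle markers 2 of 3 higher in the cochlea, and the 2 fibroblast and 3 dark cell markers tested did not pass the threshold. The neuronal marker NEFM, called toward the cochlea, had every utricle array under 4 (2.43 to 2.87). The cartilage marker ACAN, called toward the utricle, had every cochlea array under 4 (2.5 to 2.68). DCT, NEFM and ACAN thus passed the filter through 1 tissue only, which fixed their direction. With the replicate number as a block, the calls of the hair cell marker TMC2 (adjusted p = 0.0459 without and 0.0518 with the block), the dark cell marker SLC12A2 (0.214 and 0.0438) and the cartilage marker SOX9 (0.195 and 0.0424) changed. The part of these cell types in the signal of the 6 genes was not tested.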

How the data were processed

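RNA from 4 utricle and 4 cochlea samples was hybridised to Affymetrix chicken arrays, 1 array a sample. The authors deposited log2 signals made with GCRMA (background correction by GC content, quantile normalization, median polish), per the notes in their workbook and the submitters' processing notes; a version is not given in the sources used here. The deposited workbook also holds the authors' MAS 5.0 detection calls, and, from SAM, the fold as a ratio and the q-value in percent. Its values equalled the value table for all 38535 probe sets within 1e-06. Detection calls were used as the authors' number of arrays called present in each tissue. A further 136 columns of values per array were not used.

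After 96 controls were left out, probe sets above log2 4 on at least 4 of 8 arrays were compared by limma 3.58.1 (two-sided, lmFit then eBayes, under R 4.3.3), with Benjamini-Hochberg adjustment over all 16223 tested. A gene was represented by its tested probe set with the highest mean over all arrays. Where none was tested, the probe set with the highest mean was used. The values and present calls given for such a gene are from that probe set alone. The limma step was tested on simulated data, drawn as independent normal values with no background floor and no pairing of arrays. It does not bear on either. RefSeq genes of assembly GRCg7b served for names and neighbours only and named 18098 probe sets of 10647 genes; 4413 kept the sheet's name and 15928 had none. Tables and plots used Python 3.11.15, pandas 2.3.3 and matplotlib 3.10.9. No sequences are shown.

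The 6 genes and all lists were chosen with earlier results of these data known. Genes named from a list are its closest relatives of a member and up to 3 called genes in either direction, taken by smallest adjusted p. The most alike genes are the 3 closest profiles for each member, with genes whose names start with LOC left out. All values of the 6 genes are given. The result of 1 list of cell type markers is not reported here.

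Both tissues carry replicate numbers 1 to 4. Same-numbered arrays deviated together from their tissue's mean (correlations across probe sets of 0.552, 0.48, 0.404 and 0.144). Since all exceed 0.1, they are treated as pairs in the replicate block, which is an alternative. The main fit is unpaired, and it gave every call and adjusted p-value for which no other setting is named. The pairing was set from these values, and no sample label states it. In the deposited array names, the numbers after the tissue match for replicates 1 to 3 and differ for replicate 4. The block still pairs the arrays numbered 4. Utricle array 3 also correlated with cochlea array 4 (0.304), more than the arrays numbered 4 did with each other (0.144). Alternatives were the workbook values, other filters, other normalizations, eBayes with trend and robust, the replicate block, the array name prefix, leaving out each array, and the mean over a gene's probe sets.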

Additional observations from a re-analysis of the deposited data

Results flagged for a closer look

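In 122 sets of 4 arrays of 1 tissue, 13 had 1 array set apart from the other 3 past Dixon's 95% limit on the gap over the range, where chance gives about 1 in 20. Of the 6 genes, only the dim AMIGO2 probe set in the cochlea was among them, at 2.22 on every array to 2 decimals. In the cochlea, LRRC4C was 7.01 on array 2 against 7.59 on the nearest other array, and TPBG was 4.66 on array 2 against 4.53. LRRN3 was 3.01 on cochlea array 1 against 3.42, and like the dim AMIGO2 probe set it lay under log2 4 there. The other 9 lay under log2 4, where order has little meaning: ADCY3 in the cochlea (2.77), ADCY6 in the utricle (2.36) and the cochlea (2.22), ADCY7 in the utricle (2.32), ADCY10 in the cochlea (2.44), ST8SIA1 in the cochlea (2.48), ST8SIA3 in the utricle (3.17), and ADH1C in the utricle (2.38) and the cochlea (2.43). The high cochlea array 2 of AMIGO2 (6.23) and NMB (4.56) did not reach that limit.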

How the results depend on the processing

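The limits are the 4 pools per tissue, background signal in the cochlea, which leaves lower bounds, and the disagreement of probe sets for 1 gene. Averaging over a gene's probe sets moved the log2 difference of ADCY8 to 5.40, of ST8SIA6 to 4.42, of AMIGO2 to 3.30 and of ADH6 to 4.52. For AMIGO2 the move was fixed in advance, since its dim probe set was raised to 4 on every array. Array names carry 2 prefixes; in the smaller, a single untested array of either tissue, ST8SIA6 was at 5.39 and ADH6 at 5.03. No difference reversed. Leaving out 1 array at a time gave 6.07 to 6.26 for RASD2, 5.67 to 5.86 for ADCY8, 6.11 to 6.62 for NMB, 5.64 to 6.20 for ST8SIA6, 6.41 to 7.15 for AMIGO2 and 5.28 to 5.56 for ADH6, and 53 to 59 of the 91 listed genes called against 56. With the replicate number as a block, the paired fit called 60 of the 91 genes and 9438 probe sets against 8352, and among the tested genes named from the 6 lists it changed the call of RASD1 alone; 1 neighbour (HMOX1) and 3 markers (TMC2, SLC12A2 and SOX9) also changed. The block on neighbours and markers, and the counts without genes at background in 1 tissue, were chosen after seeing the data. RASD1 also passed without utricle replicate 2 (adjusted p = 0.0325), and ADH4 passed without utricle replicate 3 (adjusted p = 0.0219) and with equal array medians (adjusted p = 0.0487). PRKCA was lost with no filter on dim probe sets (adjusted p = 0.079). An equal median per array changed the split of called probe sets from 4286 and 4066 to 3895 and 4465. The cause of these changes was not tested.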
